A study of Mus musculus with 19 samples.

Results

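The genes described here are the 10 that carry out or control de novo lipogenesis in the liver: Srebf1, Mlxipl, Acly, Acaca, Fasn, Scd1, Scd2, Elovl6, Me1 and Thrsp. They were chosen by name as a pathway, from 35498 genes summed in the deposited files. All 10 were among the 13594 genes with enough reads to be tested, and the lowest count of a member in any library was 20 reads (Scd2). RNA was sequenced in 19 liver libraries of male mice, labelled C57Bl/J6 and 24 weeks. The groups were CTRL (5 libraries), the same with beta-Glucan (CTRL+beta-Glucan, 5 libraries), WSD (5 libraries) and WSD with beta-Glucan (WSD+beta-Glucan, 4 libraries). The series title names dietary oat beta-glucan, a soluble fibre, and the progression of fatty liver disease. WSD is used as a group name because the labels do not spell it out, and they give neither doses nor the hour or feeding state at collection. Nothing in the labels says that the libraries came from separate mice, so the p-values reflect how far these libraries vary among themselves, and that variation may be technical.

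De novo lipogenesis turns carbohydrate into fatty acids in the cytosol. Citrate exported from mitochondria is split to acetyl-CoA, which is carboxylated to malonyl-CoA and built into palmitate with NADPH as reductant, and palmitate is then elongated and desaturated. In the liver the enzymes are induced by feeding through a pair of transcription factors, SREBP-1c, which responds to insulin and liver X receptors, and ChREBP, which responds to sugar metabolites. SREBPs bind sterol regulatory elements next to sites for NF-Y and Sp1, and ChREBP binds paired E-boxes.

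Upstream sequence was compared among the members for exact spellings of such sites. RefSeq promoter windows on GRCm38.p6 were found for 8 of the 10 members (12 start sites in all), and Scd1 and Scd2 were not among them. The 250 bases before each start were searched on both strands for 6 motifs, each spelled 5′ to 3′. Among 32851 promoters of that length, the NF-Y box CCAAT was present in 33.8%, the GC box GGGCGG bound by Sp1 in 32.7%, the E-box CACGTG in 6.02% and the sterol regulatory element TCACNCCAC in 1.05%. A pair of AGGTCA with 4 bases between them, the direct repeat bound by liver X receptors, was present in 0.0152% and in no window of a member. A pair of CACGTG with 5 bases between them was present in 0 of the promoters, so that exact spelling could not tell any genes apart. The pair of AGGTCA was almost as rare, and its absence from the members therefore tells little. Sites that depart from these spellings were not searched for. Overlapping matches, of different motifs or of the same motif, were all kept.

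The 5 windows shown are those of both regulators, of Thrsp and Fasn, which were higher in WSD, and of Acly, which was lower on the main scale. Each is printed 5′ to 3′ in the direction of transcription and ends 1 base before the start, with the matched motifs in capitals. They lie at chr11:60210472-60210721 (Srebf1, minus strand, the start used by SREBP-1c), chr5:135106641-135106890 (Mlxipl, plus strand), chr7:97417551-97417800 (Thrsp, minus strand), chr11:120824548-120824797 (Fasn, minus strand) and chr11:100528001-100528250 (Acly, minus strand).
Srebf1: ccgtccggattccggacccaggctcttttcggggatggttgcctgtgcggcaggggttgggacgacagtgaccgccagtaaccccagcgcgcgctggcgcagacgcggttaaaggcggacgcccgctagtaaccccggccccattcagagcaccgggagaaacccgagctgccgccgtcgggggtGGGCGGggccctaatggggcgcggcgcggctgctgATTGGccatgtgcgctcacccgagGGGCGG
Mlxipl: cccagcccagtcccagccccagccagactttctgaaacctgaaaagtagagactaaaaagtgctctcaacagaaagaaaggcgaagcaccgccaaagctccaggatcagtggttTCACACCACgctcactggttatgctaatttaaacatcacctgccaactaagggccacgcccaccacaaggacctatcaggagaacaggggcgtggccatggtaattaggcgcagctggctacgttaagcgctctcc
Thrsp: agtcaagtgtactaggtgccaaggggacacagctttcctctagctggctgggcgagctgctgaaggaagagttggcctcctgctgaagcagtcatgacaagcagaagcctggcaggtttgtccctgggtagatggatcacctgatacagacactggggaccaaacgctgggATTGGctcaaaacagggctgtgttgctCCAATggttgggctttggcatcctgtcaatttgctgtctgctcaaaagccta
Fasn: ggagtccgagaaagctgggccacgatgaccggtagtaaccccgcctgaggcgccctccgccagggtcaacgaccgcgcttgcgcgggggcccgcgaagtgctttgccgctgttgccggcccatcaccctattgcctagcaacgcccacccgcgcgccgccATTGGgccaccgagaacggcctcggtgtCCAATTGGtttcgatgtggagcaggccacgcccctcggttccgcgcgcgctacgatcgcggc
Acly: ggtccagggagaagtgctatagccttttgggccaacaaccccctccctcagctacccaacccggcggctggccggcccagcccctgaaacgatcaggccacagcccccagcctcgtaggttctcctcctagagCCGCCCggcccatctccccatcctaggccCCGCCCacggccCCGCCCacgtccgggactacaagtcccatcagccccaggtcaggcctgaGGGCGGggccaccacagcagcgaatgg

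Fasn had 3 NF-Y boxes, at -90, -62 and -59 from its start, and Thrsp had 2, at -79 and -52. The Fasn matches at -62 and -59 overlap within CCAATTGG, which reads the same on both strands. The SREBP-1c start had 1 NF-Y box at -30 and 2 GC boxes at -65 and -6. The Mlxipl window had the only TCACNCCAC among the members, TCACACCAC at -136, and no other match. Acly had 4 GC boxes and no NF-Y box. Of the windows not printed, the Me1 start at 86695914 had 3 GC boxes and the Srebf1 start at 60220627, next to the SREBP-1a first exon, had 2. The upstream Mlxipl start at 135089890 had an E-box, an NF-Y box and 2 GC boxes. The other Me1 and Srebf1 starts had 1 NF-Y box each, and the Acaca and Elovl6 windows had no match. The Acaca window precedes the start at 84195438. Annotated Acaca starts upstream of it, such as that at 84173122, were not among the windows. A match describes letters in a window, and no binding was measured.

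The libraries held 17253823 to 23450232 estimated reads each, and no pair of libraries held the same counts. The liver label was checked against 10 hepatocyte markers, which summed to between 58123.6 and 168077 CPM in every library, while the 6 exocrine pancreas markers summed to at most 17.3 CPM and the 5 muscle markers to at most 1.1 CPM. Levels in CPM are reads brought to a common library total, here with TMM (trimmed mean of M values) factors. The hepatocyte sum was 114750.3 to 149879.5 CPM in CTRL and 58123.6 to 71338.9 CPM in WSD, and 9 of 10 markers were lower. The sum of 10 monocyte and macrophage markers was 42.9 to 116.2 CPM in CTRL and 607.5 to 750.4 CPM in WSD, with 10 of 10 higher. Of 6 tested adipocyte markers 5 were higher and 1 lower in WSD. The lower one was Pck1, which is also among the fasting genes below. The adipocyte hormone Lep was at 0 reads in every CTRL, CTRL+beta-Glucan and WSD library. The part of these shifts in the values of the 10 genes was not tested, and in bulk tissue fewer cells of a type and less RNA per cell cannot be told apart. TMM factors also differed with the group, from 0.829 to 0.896 in CTRL and from 1.14 to 1.26 in WSD. Scaling by library size only, an alternative added after seeing the data, moved the median log2 fold change of all genes in WSD against CTRL from -0.04 to 0.43, with 7874 genes higher and 617 lower in place of 3528 and 3680.

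The titles of 3 libraries carry the numbers 37, 39 and 40, well below those of the others: replicates 1 and 2 of CTRL+beta-Glucan, and replicate 1 of WSD+beta-Glucan. Some members stood apart in them. In CTRL+beta-Glucan, Fasn was at 153.3 and 155.7 CPM in these libraries and at 79.3 to 98.7 CPM in the other three. Thrsp was at 15.5 and 17.1 CPM against 9.49 to 10.8 CPM, and Elovl6 at 16.2 and 18.5 CPM against 26.4 to 41.6 CPM. Where leaving them out changed a call or moved a value of note, both values are given.

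In WSD compared with CTRL, the desaturases, the fatty acid synthase, the carboxylase, both transcription factors and Thrsp were higher, while the suppliers of acetyl-CoA and NADPH, Acly and Me1, were lower on the TMM scale. By edgeR's quasi-likelihood test with Benjamini-Hochberg adjustment over all 13594 genes, 7 of the 10 members passed an adjusted p of 0.05 as higher and 2 as lower, and Elovl6 did not pass. In the same comparison 53% of all genes passed, 26% as higher and 27.1% as lower. The libraries of both groups did not overlap for 6 members that were higher and for both that were lower, against 20% and 18.4% of all genes. The median log2 fold change of the members was 0.82, and that of all genes was -0.04. Without the 3 low-numbered libraries, none of which is in CTRL or WSD but which share in the estimate of spread, all 10 members passed.

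**Figure D1:**
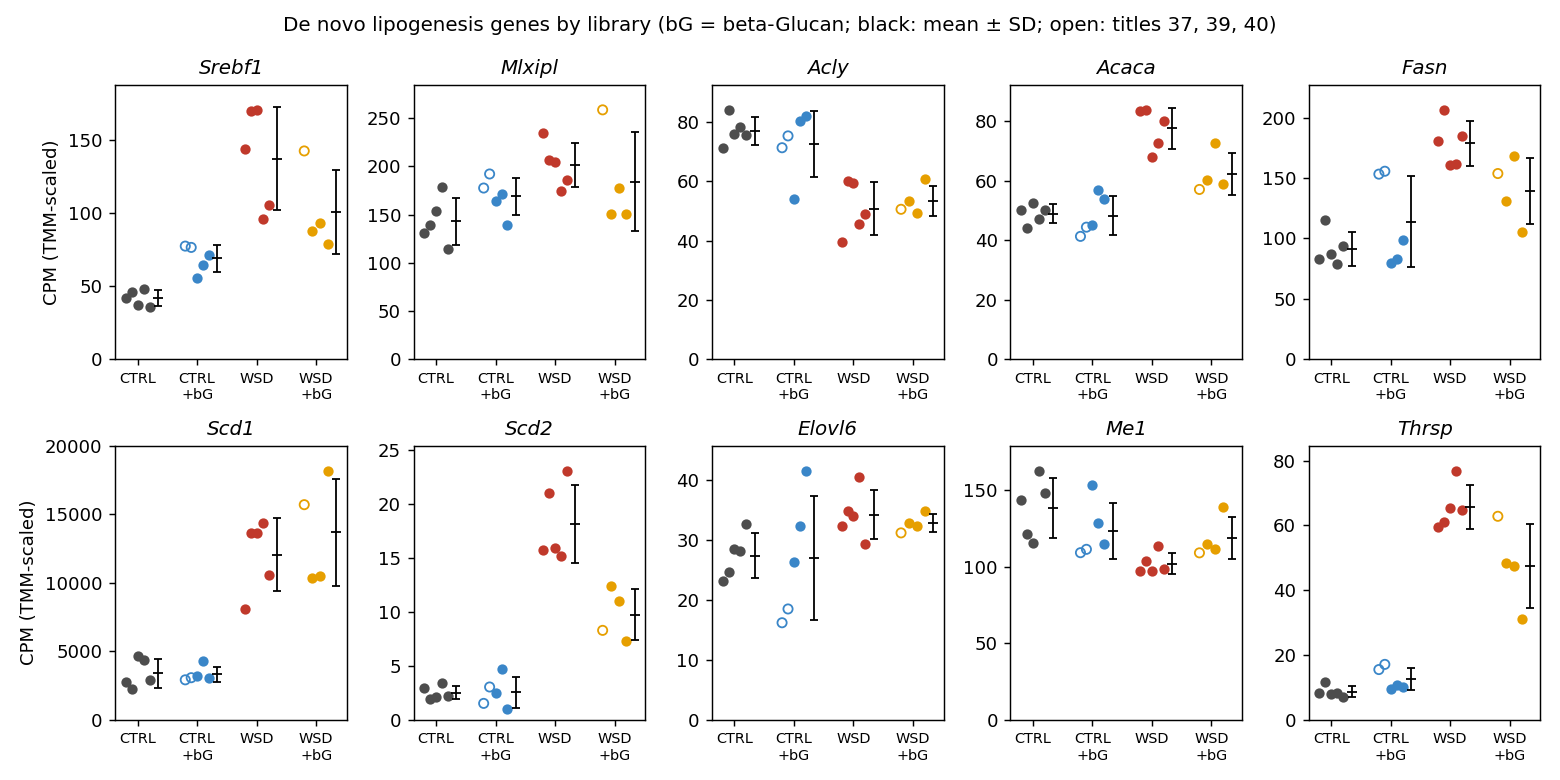
Each panel plots 1 gene in TMM-scaled CPM (linear axis from 0) for every library of the 4 groups, with the mean ± SD in black and the libraries titled 37, 39 and 40 as open circles. Srebf1 lies between 36 and 48.3 CPM in CTRL and between 96.3 and 171 CPM in WSD, while Acly lies at 71.4 to 84.2 CPM in CTRL and 39.6 to 60 CPM in WSD.

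Among the regulators, Srebf1 encodes SREBP-1, the membrane-bound factor that drives lipogenic genes once released from the Golgi. Its level was 42.2, 46.1, 37.4, 48.3 and 36 CPM in the CTRL libraries and 144.2, 170.2, 171, 96.3 and 105.9 CPM in the WSD libraries. Every WSD library was above every CTRL library, with WSD replicates 4 and 5 lowest within their group. The log2 fold change was 1.71 ± 0.18 (SE), with an edgeR adjusted p of 2.39e-07.

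Mlxipl, which encodes ChREBP, was at 130.8, 139.5, 153.3, 178.3 and 113.8 CPM in CTRL and at 234.4, 206.6, 204.3, 174.5 and 186.1 CPM in WSD. The groups overlapped, since CTRL replicate 4 was above WSD replicate 4. The difference was the smallest among the members that passed as higher, 0.49 ± 0.14 on the log2 scale (edgeR adjusted p = 0.00718).

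Thrsp (thyroid hormone responsive) encodes a small protein that promotes lipogenesis and is a classic target of thyroid hormone and carbohydrate feeding. It was at 8.21, 11.6, 7.99, 8.4 and 7.11 CPM in CTRL and at 59.6, 61.1, 65.3, 76.9 and 64.8 CPM in WSD. No WSD library came near the CTRL range. The change was the largest of the members, 2.92 ± 0.19 on the log2 scale, with an edgeR adjusted p of 1.17e-09, and it held rank 39 by p among all genes tested.

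Acly, ATP citrate lyase, makes the acetyl-CoA from which fatty acids are built, and it was lower in WSD on the TMM scale. Its levels were 71.4, 84.2, 76.1, 78.3 and 75.6 CPM in CTRL and 39.6, 60, 59.6, 45.7 and 48.9 CPM in WSD. The groups did not overlap, and the log2 fold change was -0.60 ± 0.12 (edgeR adjusted p = 0.000242). With scaling by library size only it was -0.14, with an edgeR adjusted p of 0.318. In the deposited TPM, which add up to the same total in each library, Acly was at 21.1 ± 1.97 in CTRL (SD, n = 5) and 19.4 ± 3.44 in WSD (SD, n = 5).

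Me1, the cytosolic malic enzyme that supplies NADPH, was at 144, 121.6, 115.9, 163 and 148.6 CPM in CTRL and at 97.4, 103.9, 97.3, 113.7 and 98.5 CPM in WSD. The highest WSD library was just below the lowest CTRL library. The log2 fold change was -0.44 ± 0.11 (edgeR adjusted p = 0.00194), and with library size only it turned to 0.02 with an edgeR adjusted p of 0.876. The TPM values were 70.7 ± 9.13 in CTRL and 73.1 ± 7.56 in WSD (SD, n = 5 each). The lower level of Acly and Me1 therefore held relative to the other genes and not as a share of all reads.

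Acaca, which makes malonyl-CoA for synthesis in the cytosol, was at 50.2, 44.2, 52.5, 47.3 and 50.3 CPM in CTRL and 83.4, 83.9, 68.1, 72.9 and 80.1 CPM in WSD. The groups were well apart, and the log2 fold change was 0.67 ± 0.09 (edgeR adjusted p = 8.46e-06). Fasn, the synthase that assembles palmitate, was at 83.3, 114.9, 86.9, 79.2 and 93.5 CPM in CTRL and at 180.5, 206.6, 161.1, 161.7 and 184.7 CPM in WSD. Again every WSD library was above the CTRL libraries, with a log2 fold change of 0.97 ± 0.18 (edgeR adjusted p = 0.000184).

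Scd1, the main liver stearoyl-CoA desaturase that makes oleate and palmitoleate, was at 2763.3, 2250.9, 4660.3, 4346.5 and 2936.7 CPM in CTRL. In WSD it was at 8097.7, 13632.8, 13638.5, 14384.3 and 10542.6 CPM. Every WSD library was above the CTRL range, and the log2 fold change was 1.83 ± 0.22 (edgeR adjusted p = 1.16e-06). Scd1 took 0.201% to 0.406% of all reads in CTRL and 1.01% to 1.7% in WSD.

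Scd2, the desaturase isoform best known from brain and fetal liver, was at 2.92, 1.95, 2.1, 3.43 and 2.21 CPM in CTRL and 15.7, 21, 15.9, 15.2 and 23.1 CPM in WSD. The change was 2.85 ± 0.29 on the log2 scale (edgeR adjusted p = 2.41e-07), with no overlap. Scd2 is a near copy of Scd1 in parts, so reads could be assigned to the wrong gene: 5.26% of the 31-base words of the main Scd1 transcript also occur in the main Scd2 transcript. There were 0.45 to 1.06 Scd2 reads per 1000 Scd1 reads in CTRL, and 1.05 to 2.19 in WSD, ranges that overlapped at their ends. How many Scd2 reads came from Scd1 was not tested.

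Elovl6, which elongates palmitate to stearate, was at 23.2 to 32.7 CPM in CTRL and 29.4 to 40.6 CPM in WSD, and these ranges overlapped. Its log2 fold change of 0.32 ± 0.18 did not pass (95% interval -0.06 to 0.71, edgeR adjusted p = 0.148). It passed in a fit of only CTRL and WSD (0.37, edgeR adjusted p = 0.00896), without the 3 low-numbered libraries (0.33, edgeR adjusted p = 0.021) and with library size only (0.79, edgeR adjusted p = 0.00207).

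**Figure D2:**
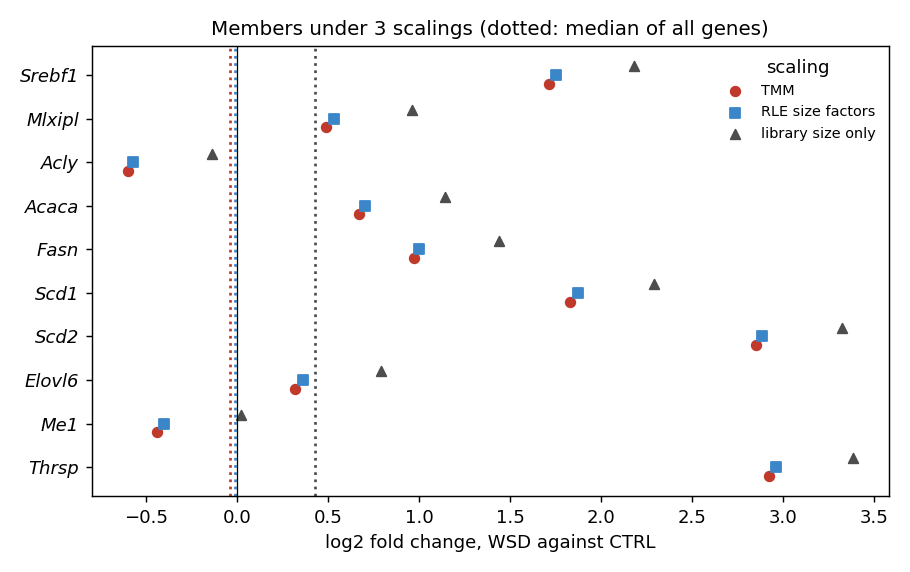
The horizontal axis is the log2 fold change of WSD against CTRL for each member under TMM, RLE size factors and library size only, and dotted lines mark the median of all genes under each. Under library size only that median is 0.43, Me1 lies at 0.02 and Acly at -0.14, while the other 8 members lie above 0.43.

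Ratios between members within a library do not depend on that scaling, and 3 were added after seeing the data, each in 4 comparisons. These pairs were chosen with the values of the members known. The adjustment covers only the 12 tests and not that choice. Comparisons given neither here nor below did not pass. There were 3.6 ± 0.667 Fasn reads per Acly read in WSD (SD, n = 5) and 1.18 ± 0.13 in CTRL (SD, n = 5), with no overlap (two-sided exact permutation p = 0.00794, adjusted 0.0317 over 12 tests). This p is the smallest that 5 libraries against 5 can give. Srebf1 reads per Mlxipl read were 0.679 ± 0.14 in WSD and 0.297 ± 0.0377 in CTRL (SD, n = 5 each; exact permutation p = 0.00794, adjusted 0.0317). Scd1 reads per Fasn read were 68.3 ± 18.5 in WSD and 38.5 ± 15.3 in CTRL and did not pass (SD, n = 5 each; exact permutation p = 0.0317, adjusted 0.0635). Between WSD+beta-Glucan and CTRL+beta-Glucan the last ratio was 104.1 ± 48.6 and 32.4 ± 14 (SD, n = 4 and 5; exact permutation p = 0.0159, adjusted 0.0381). Without the 3 low-numbered libraries it was 104.7 ± 59.4 and 41.1 ± 10.6 (n = 3 each; exact permutation p = 0.1, the smallest that design allows). Srebf1 reads per Mlxipl read in these groups were 0.547 ± 0.0286 and 0.412 ± 0.0649 (SD, n = 4 and 5; exact permutation p = 0.0159, adjusted 0.0381). Leaving out the 3 libraries gave 0.546 ± 0.0349 and 0.408 ± 0.0895 (n = 3 each; exact permutation p = 0.1).

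On the TPM scale, which corrects for transcript length and so allows levels of different genes to be compared, Scd1 was far above the rest in every group. It was at 795.3 ± 273 TPM in CTRL and 3897.2 ± 830.5 TPM in WSD (SD, n = 5 each). In CTRL, Me1 (70.7 ± 9.13 TPM) and Mlxipl (61.3 ± 12 TPM) came next and overlapped each other. Fasn was at 31.8 ± 7.63 TPM, Acly at 21.1 ± 1.97 TPM and Srebf1 at 14.2 ± 2.33 TPM, and the ranges of these 3 did not overlap. Thrsp (7.47 ± 1.65 TPM), Acaca (5.77 ± 0.415 TPM) and Elovl6 (5.49 ± 0.653 TPM) had overlapping ranges, and Scd2 was lowest at 0.498 ± 0.133 TPM. In WSD the order was Scd1, Mlxipl at 119.1 ± 15.4 TPM, Fasn at 104.3 ± 15.6 TPM, Thrsp at 78.8 ± 6.8 TPM, Me1 at 73.1 ± 7.56 TPM and Srebf1 at 70.1 ± 19.2 TPM, and from Mlxipl on each overlapped the next. Acly followed at 19.4 ± 3.44 TPM, separate from both its neighbours, then Acaca at 12.3 ± 1.86 TPM, which overlapped Elovl6 at 9.39 ± 0.851 TPM. Scd2 was again lowest at 4.97 ± 1.26 TPM, separate from Elovl6. Thrsp and Srebf1 were below Acly in CTRL and above it in WSD. These TPM are sums over all transcripts of a gene. For Fasn they include Fasn-203 and Fasn-202, short transcripts annotated as retained introns, with 14.03% and 7.69% of its reads. Short transcripts weigh more in TPM than in reads, and the place of Fasn in either order without them was not tested.

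When beta-glucan was added to WSD, no member passed the test. Scd2, Thrsp, Srebf1, Fasn, Acaca, Mlxipl and Elovl6 had lower means than in WSD, and Scd1, Me1 and Acly higher ones. Mlxipl, Acly and Elovl6 had log2 fold changes of -0.13, 0.08 and -0.06. The Mlxipl value rested on replicate 1 of WSD+beta-Glucan, at 258.8 CPM beside 150.2 to 177.6 CPM in the others, and was -0.33 without the 3 low-numbered libraries (edgeR adjusted p = 0.253). Of all genes 0.39% passed by edgeR, 0.0883% as higher and 0.302% as lower, and at an unadjusted p under 0.05 there were 4 members and 2118 of 13594 genes. DESeq2 called 2 members lower, Acaca at -0.34 (adjusted p = 0.0353) and Scd2 at -0.93 (adjusted p = 0.0459), beside 436 genes in all. The median of the members was -0.22 and that of all genes 0.01. This comparison and that of WSD with CTRL share the WSD libraries, so a high WSD value by chance enters both with opposite signs. In the same libraries the macrophage marker sum was 364.3 to 438.6 CPM with beta-glucan and 607.5 to 750.4 CPM without, with 0 of 10 markers past the threshold on the TMM scale and 6 of 10 lower by library size only. Of 7 markers of lipid-associated macrophages 4 were lower under both scalings. The hepatocyte sum was 72465 to 105233.2 CPM with beta-glucan and 58123.6 to 71338.9 CPM without, with 0 of 10 past the threshold. The part of these shifts in the members' values was not tested.

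Scd2 was at 8.29, 12.4, 11 and 7.29 CPM in WSD+beta-Glucan, below all 5 WSD libraries (15.2 to 23.1 CPM). It was the one member whose libraries did not overlap, as for 4.83% of all genes that were lower and 2.59% that were higher. The log2 fold change was -0.90 ± 0.28 (95% interval -1.48 to -0.32, edgeR adjusted p = 0.134), and in a fit of only these 9 libraries it passed (-0.91, edgeR adjusted p = 0.0205). Scd2 reads per 1000 Scd1 reads were 0.4 to 1.19 with beta-glucan and 1.05 to 2.19 without.

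Scd1 was at 15709.6, 10376.2, 10480.9 and 18198.2 CPM in WSD+beta-Glucan. Replicates 1 and 4 were above all WSD libraries (8097.7 to 14384.3 CPM), and the others lay within the WSD range. Its log2 fold change was 0.18 ± 0.23, with a 95% interval of -0.29 to 0.65 (edgeR adjusted p = 0.733).

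Srebf1 was at 142.8, 88.2, 93.5 and 78.8 CPM in WSD+beta-Glucan. Replicate 1, which is 1 of the low-numbered libraries, lay between the lower 2 and the upper 3 WSD libraries, and the others were below all WSD libraries. The log2 fold change was -0.45 ± 0.18 (95% interval -0.83 to -0.07, edgeR adjusted p = 0.246), and -0.66 without the 3 libraries (edgeR adjusted p = 0.104).

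Thrsp was at 62.8, 48.3, 47.4 and 31.2 CPM, again highest in replicate 1, where it lay within the WSD range. It differed from WSD by -0.47 ± 0.18 on the log2 scale (95% interval -0.85 to -0.08, edgeR adjusted p = 0.231). With a term for the 3 low-numbered libraries it passed, at -0.65 (edgeR adjusted p = 0.0193), and with those libraries left out it did not, at -0.63 (edgeR adjusted p = 0.0731).

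Acaca was at 57.1, 60.2, 72.9 and 59.1 CPM, of which only the third overlapped WSD, and its log2 fold change was -0.32 ± 0.10 (95% interval -0.53 to -0.11, edgeR adjusted p = 0.137). Fasn was at 153.8, 131.1, 168.2 and 105.4 CPM, with a log2 fold change of -0.36 ± 0.19 (95% interval -0.76 to 0.04, edgeR adjusted p = 0.368). The remaining members had intervals that included 0: Mlxipl -0.44 to 0.19, Acly -0.18 to 0.33, Elovl6 -0.47 to 0.34 and Me1 -0.02 to 0.45. In simulated counts of this comparison over 13594 genes, 43.3% of genes changed 1.5-fold and 79.1% of those changed 2-fold were recovered, and each member's fitted fold was under 2. The changed genes were drawn at random across read levels, and no diet effect was simulated, so these rates are not those of the members.

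**Figure D3:**
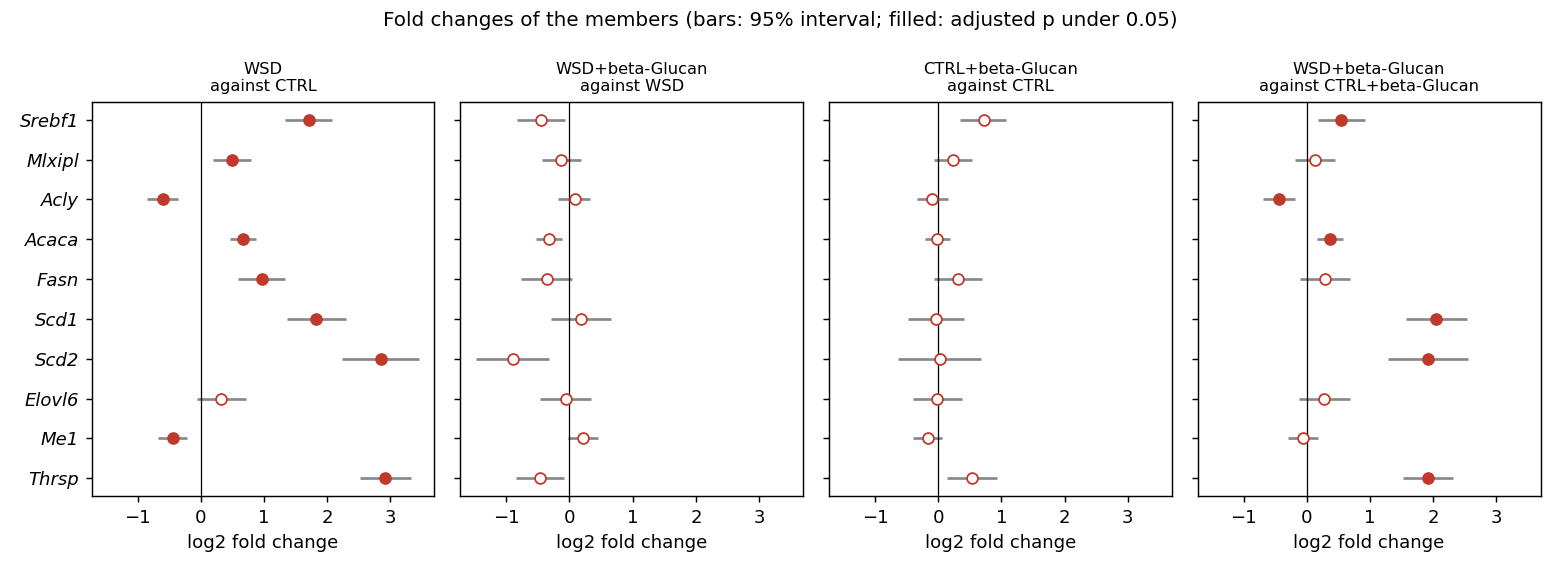
Points are log2 fold changes of the 10 members in 4 comparisons with 95% intervals, filled where the edgeR adjusted p was under 0.05. In WSD against CTRL 9 of 10 points are filled, in both beta-glucan comparisons none is, and in WSD+beta-Glucan against CTRL+beta-Glucan 6 are.

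Added to CTRL, beta-glucan left all members short of the threshold as well. In this comparison 1 gene of 13594 passed by edgeR (0.00736%, higher, with 0 lower), and DESeq2 called 6 genes and no member. At an unadjusted p under 0.05 there were 2 members, Srebf1 and Thrsp, and 775 genes. Srebf1 was at 77.5, 76.6, 55.6, 64.6 and 71.1 CPM, above all CTRL libraries (36 to 48.3 CPM). Such separation was found for 0.28% of all genes as higher and 0.206% as lower, and for no other member. The log2 fold change of Srebf1 was 0.72 ± 0.17 (95% interval 0.35 to 1.08), its unadjusted edgeR p of 0.000576 was the 12th smallest of all genes, and the adjusted p was 0.554. Without the low-numbered libraries it was 0.60 (edgeR adjusted p = 0.364). Srebf1 reads per Mlxipl read, a ratio added after seeing the data, were 0.412 ± 0.0649 with beta-glucan and 0.297 ± 0.0377 without (SD, n = 5 each; exact permutation p = 0.00794, adjusted 0.0317 over 12 tests). The adjustment does not cover the choice of this ratio. Without the low-numbered libraries the ratio with beta-glucan was 0.408 ± 0.0895 (SD, n = 3; exact permutation p = 0.0179, adjusted 0.0714), where the p is the smallest that 3 libraries against 5 can give.

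Thrsp was at 15.5, 17.1, 9.49, 10.8 and 10.1 CPM in CTRL+beta-Glucan, with a log2 fold change of 0.54 ± 0.19 (edgeR adjusted p = 0.851) that was 0.23 without the low-numbered libraries. Fasn was at 0.31 ± 0.18 (edgeR adjusted p = 0.855), and at -0.08 without those libraries, so its sign rested on them. The intervals of the other members included 0, from -0.48 to 0.41 for Scd1, -0.63 to 0.68 for Scd2 and -0.40 to 0.37 for Elovl6, and from -0.21 to 0.18 for Acaca.

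Compared among the groups given beta-glucan, WSD+beta-Glucan against CTRL+beta-Glucan, 5 members passed as higher and 1 as lower. Of all genes 34.3% passed, 19.1% as higher and 15.2% as lower. By library size only 5137 genes were higher and 385 lower, and 8 members were higher and 0 lower, with the median of all genes at 0.28. The libraries of 5 members were separate as higher and of none as lower, against 14.4% and 10.7% of all genes. Scd1 rose by 2.05 ± 0.23 on the log2 scale (edgeR adjusted p = 2.35e-06), Thrsp by 1.92 ± 0.19 (edgeR adjusted p = 7.94e-07) and Scd2 by 1.92 ± 0.30 (edgeR adjusted p = 9.37e-05). Acaca was higher by 0.37 ± 0.10 (edgeR adjusted p = 0.00812). Srebf1 was higher by 0.54 ± 0.18 (edgeR adjusted p = 0.026), a call lost without WSD+beta-Glucan replicate 1 (0.33, edgeR adjusted p = 0.155), without CTRL+beta-Glucan replicate 3 (0.48, edgeR adjusted p = 0.0632) and without the 3 low-numbered libraries (0.46, edgeR adjusted p = 0.092).

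Acly was lower by -0.44 ± 0.12 (edgeR adjusted p = 0.00988), a call lost without the 3 low-numbered libraries (-0.39, edgeR adjusted p = 0.0771) and with library size only (-0.15, edgeR adjusted p = 0.37). Mlxipl, Fasn, Elovl6 and Me1 did not pass, at 0.13 ± 0.15, 0.29 ± 0.19, 0.27 ± 0.19 and -0.06 ± 0.11. Fasn passed without the low-numbered libraries, at 0.64 (edgeR adjusted p = 0.00791), and Elovl6 without CTRL+beta-Glucan replicate 5, at 0.48 (edgeR adjusted p = 0.0297). By library size only Mlxipl, Fasn and Elovl6 passed, at 0.42, 0.63 and 0.55.

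Whether the effect of beta-glucan differed between WSD and CTRL was tested directly, and no member passed by edgeR. Only 0.00736% of genes passed, and at an unadjusted p under 0.05 there were 6 members and 1865 genes. Srebf1 had the largest difference, -1.17 ± 0.25 on the log2 scale (95% interval -1.70 to -0.64), with an unadjusted edgeR p of 0.000185 and an edgeR adjusted p of 0.128. Its fitted level with beta-glucan was 1.64 times that of CTRL and 0.733 times that of WSD. Thrsp followed at -1.0 ± 0.26 (edgeR adjusted p = 0.181). DESeq2 called both, Srebf1 at -1.20 (adjusted p = 0.00354) and Thrsp at -1.04 (adjusted p = 0.031), among 139 genes. Fasn was at -0.67 ± 0.26, Scd2 at -0.93 ± 0.42, Acaca at -0.30 ± 0.14 and Me1 at 0.38 ± 0.16, all with edgeR adjusted p of 0.29 or more. Without the 3 low-numbered libraries Srebf1 was at -1.26, Thrsp at -0.86 and Fasn at -0.33 (edgeR adjusted p = 0.155, 0.37 and 0.599). Elovl6 moved from -0.05 to -0.33 without them (edgeR adjusted p = 0.573).

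Srebf1 and Mlxipl each have alternative first exons, and the share of a gene's estimated reads given to each was compared in 24 tests. Coordinates here are GENCODE M21 on GRCm38. The transcript that starts in the exon at chr11:60220453-60220604, with 91 coding bases there, encodes the SREBP-1a form. The transcript that starts at chr11:60210336-60210465, with 19 coding bases there, encodes SREBP-1c, the form known to dominate in liver. Most other reads were given to a transcript that begins inside the gene, at chr11:60206838-60207188, and holds neither first exon. The forms share most of their exons, so few reads tell them apart and the split is an estimate.

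In CTRL the SREBP-1a transcripts took 63.9%, 55%, 69.8%, 88.1% and 77.4% of Srebf1 reads, and in WSD 31%, 37.9%, 52.5%, 37.2% and 36.3%. All WSD libraries were below all CTRL libraries. The means were 70.8 ± 12.7% and 39 ± 8.04% (SD, n = 5 each), and the two-sided exact permutation p of 0.00794, the smallest possible here, came to 0.19 after adjustment over 24 tests. The SREBP-1c share was 12.3 ± 4.14% in CTRL and 8.04 ± 4.77% in WSD (SD, n = 5 each; exact permutation p = 0.151, adjusted 0.724). In WSD it rested on 59 to 555.4 reads per library. Transcripts with neither first exon took 16.9 ± 14% in CTRL and 53 ± 11.6% in WSD (SD, n = 5 each; exact permutation p = 0.0159, adjusted 0.19). None of the 24 tests passed after adjustment, but a single share at the smallest possible p could not have passed over so many tests. Mean reads of all 3 kinds were higher in WSD than in CTRL.

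**Figure D4:**
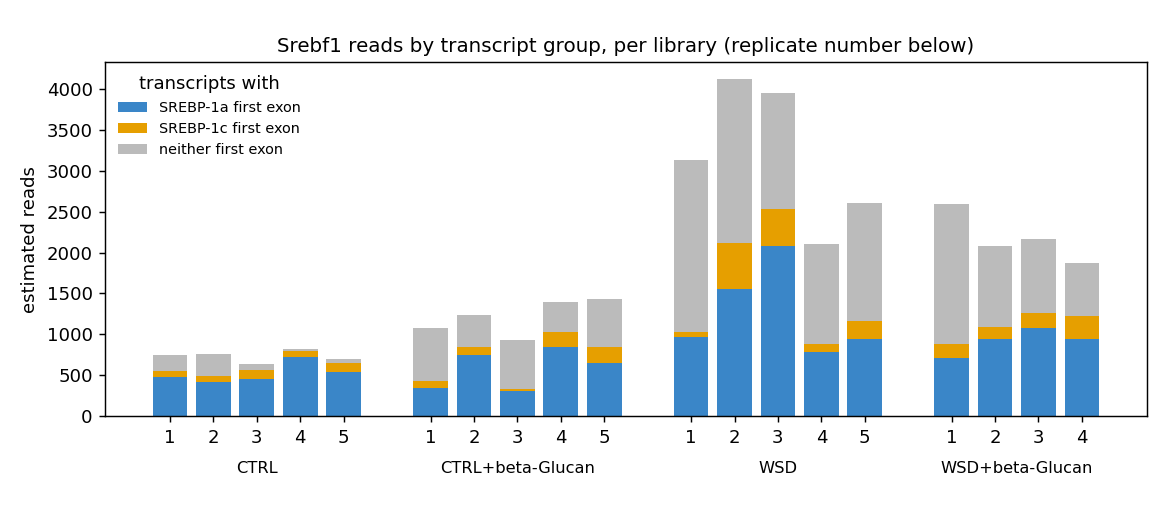
Bars are the estimated Srebf1 reads of each library, stacked by transcripts with the SREBP-1a first exon, the SREBP-1c first exon or neither. The SREBP-1a segment spans 416.7 to 720 reads in CTRL and 781.9 to 2075.6 in WSD, and the segment with neither first exon 21.8 to 273.2 and 1221.6 to 2099.5 reads.

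In CTRL+beta-Glucan the SREBP-1a share was 46.3 ± 14% (SD, n = 5; exact permutation p = 0.0317 against CTRL, adjusted 0.238), between those of CTRL and WSD, and 46.1 ± 13.9% without the low-numbered libraries (n = 3; exact permutation p = 0.0536, adjusted 0.429). In WSD+beta-Glucan it was 43.1 ± 10.8% (SD, n = 4; exact permutation p = 0.508 against WSD, adjusted 0.96). For Mlxipl, transcripts with the downstream first exon, the one used by the ChREBP-alpha form, took 94.5% to 95% of reads on average in every group. Among them the coding transcript Mlxipl-201 held 47.37% of the gene's reads over all libraries. Most other reads of this kind were given to transcripts annotated for nonsense-mediated decay, the largest with 25.51%. Mlxipl transcripts with the upstream first exon, from which the potent ChREBP-beta form is made, took 0.185% to 0.259% on average and rested on 1.2 to 14.5 reads per library. At that depth no difference was detectable. The only transcript in the files with that exon has 4 exons and no coding sequence, and it ends at chr5:135121786, inside the gene. Reads from later exons of a ChREBP-beta transcript would be given to other transcripts, so this share does not measure the beta form.

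Within groups the members did not move as one unit. Deviations of log2 CPM from the group mean were correlated over the 19 libraries between Srebf1 or Mlxipl and each of the other 8 members, 16 relations in all, and none passed. The highest for Srebf1 were with Fasn (r = 0.45, rho = 0.35, permutation p = 0.037 and 0.13, adjusted 0.25 and 0.36; r = 0.44 without the 2 farthest libraries) and Thrsp (r = 0.45, rho = 0.40, permutation p = 0.062 and 0.087, adjusted 0.25 and 0.36; r = 0.51 without the 2 farthest). Without the 3 low-numbered libraries these were 0.32 and 0.10. For Mlxipl the highest was with Thrsp (r = 0.48, rho = 0.40, permutation p = 0.094 and 0.13, adjusted 0.30 and 0.36; r = 0.40 without the 2 farthest libraries), which was 0.07 without the 3 libraries. The smallest p of the 16 was that of Mlxipl with Elovl6 (r = -0.39, rho = -0.41, permutation p = 0.027 and 0.10, adjusted 0.25 and 0.36; r = -0.53 without the 2 farthest libraries), at -0.36 without the 3 libraries. Among all 45 pairs of members, 21 correlations were positive and 3 exceeded 0.5, with a median of -0.01, given as a description. Without the 3 low-numbered libraries 1 pair exceeded 0.5. The highest was Fasn with Thrsp at 0.75, followed by Srebf1 with Mlxipl at 0.69, and the lowest was Fasn with Me1 at -0.69. These were 0.52, 0.48 and -0.62 in the 16 libraries other than the low-numbered ones. The protein-coding genes whose deviations were most like the mean of the members over the 19 libraries were Wdfy2 (r = 0.83), Gsap (r = 0.79), Lin7a (r = 0.79), Morn1 (r = 0.76) and Heatr5a (r = 0.75). They top a ranking of all tested protein-coding genes, where values this high can arise by chance. No p was computed for them, nor a value without the 3 low-numbered libraries, and they are given as a description.

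Around the 10 genes the pathway did not move in 1 direction in WSD. Of 25 regulators and nutrient sensors, which include Srebf1, Mlxipl and Thrsp, 4 were higher and 12 lower than in CTRL, with a median of -0.24. The calls of a list on the TMM scale differ from those by library size only, which are given beside them: here 12 higher and 4 lower. The counts of each list stand against 26% of all genes higher and 27.1% lower on the TMM scale. By library size only they stand against 7874 genes higher and 617 lower of 13594, so most genes were higher on that scale. Scap, the escort that carries SREBPs to the Golgi, was lower by -0.96 ± 0.13 (edgeR adjusted p = 4.29e-06), and its anchor Insig1, itself an SREBP target, by -1.50 ± 0.29 (edgeR adjusted p = 0.000359). Insig2, the isoform whose liver transcript is known to fall with insulin, was lower by -0.60 ± 0.14 (edgeR adjusted p = 0.00102), but by library size only it did not pass (-0.13). Srebf2, the factor of cholesterol synthesis, was lower by -0.83 ± 0.10 (edgeR adjusted p = 2.15e-06), the reverse of Srebf1. Nr1h3, which encodes LXR-alpha, was at -0.12 ± 0.08 and did not pass, though by library size only it did, at 0.35. Mid1ip1, the paralog and partner of Thrsp, was higher by 0.84 ± 0.19 (edgeR adjusted p = 0.000948).

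Of 16 sugar entry genes and ChREBP targets, 4 were higher and 5 lower, shares near those of all genes, with a median of 0.04 beside -0.04 for all genes (8 and 1 by library size only). Pklr, liver pyruvate kinase and a target of ChREBP, rose by 1.20 ± 0.11 (edgeR adjusted p = 4.95e-08). Khk, ketohexokinase, was at 0.27 ± 0.13 and did not pass, though by library size only it did, at 0.73 (edgeR adjusted p = 0.000166). Gpd1, the glycerol phosphate dehydrogenase, was lower by -0.54 ± 0.10 (edgeR adjusted p = 0.000225) but did not pass by library size only (-0.08).

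Of 13 genes that supply acetyl-CoA and NADPH, 5 were higher and 5 lower, with a median of -0.18 (7 and 0 by library size only). The higher ones were led by the oxidative pentose phosphate enzymes G6pdx, at 1.74 ± 0.16 (edgeR adjusted p = 4.55e-08), and Pgd, at 1.19 ± 0.11 (edgeR adjusted p = 4.65e-08), which make NADPH as Me1 does. Lower on the TMM scale beside Acly and Me1 were the citrate carrier Slc25a1 (-0.56 ± 0.09, edgeR adjusted p = 5.26e-05), the acetyl-CoA synthetase Acss2 (-0.51 ± 0.11, edgeR adjusted p = 0.000764) and Idh1 (-0.43 ± 0.08, edgeR adjusted p = 0.000199). By library size only these 3 were at -0.10, -0.05 and 0.04 and did not pass.

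Of 19 tested genes of synthesis, elongation and desaturation (Scd3 and Scd4 had too few reads), 6 were higher and 9 lower, with a median of -0.22 (10 and 4 by library size only). Acacb, the mitochondrial carboxylase whose malonyl-CoA restrains fat oxidation, was lower by -1.52 ± 0.29 (edgeR adjusted p = 0.000288) while Acaca was higher. Elovl3 fell by 2.76 ± 0.27 on the log2 scale (edgeR adjusted p = 1.97e-07) and Elovl2 by 1.53 ± 0.16 (edgeR adjusted p = 1.98e-07), both elongases of very long chains. Both were also lower by library size only, at -2.3 and -1.06 (edgeR adjusted p = 3.73e-07 and 1.23e-05). Elovl5 and Fads1 of the polyunsaturated branch were lower, at -0.72 ± 0.22 (edgeR adjusted p = 0.0102) and -0.45 ± 0.15 (edgeR adjusted p = 0.0196). Fads2 was at -0.34 ± 0.16 (edgeR adjusted p = 0.0824) and did not pass. By library size only Elovl5, Fads1 and Fads2 were at -0.25, 0.02 and 0.13, none of which passed.

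**Figure D5:**
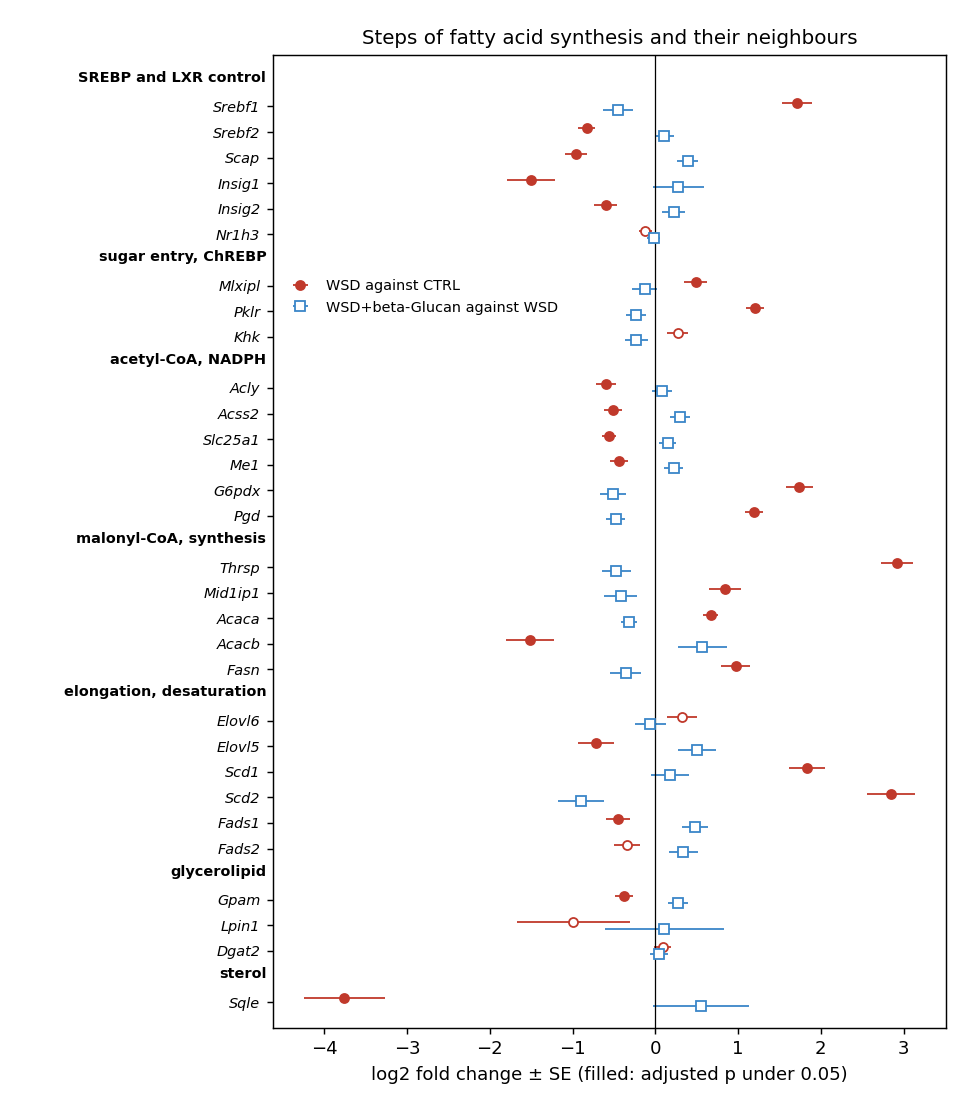
Points are log2 fold changes ± SE of the members and of neighbouring genes, ordered by step, for WSD against CTRL (circles) and WSD+beta-Glucan against WSD (squares), filled where the edgeR adjusted p was under 0.05. Thrsp at 2.92 and Sqle at -3.76 mark the ends, and no square is filled.

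Genes that place fatty acids into glycerolipids were mostly lower on the TMM scale, with 1 higher and 10 lower of 17 tested and a median of -0.41. By library size only, where most of all genes were higher, 4 were higher and 1 lower. Mogat1, a monoacylglycerol acyltransferase, rose by 2.61 ± 0.20 (edgeR adjusted p = 4.86e-09). Acsl1, a long-chain acyl-CoA synthetase, was lower by -1.60 ± 0.20 (edgeR adjusted p = 2e-06), Dgat1 by -0.48 ± 0.08 and the glycerol phosphate acyltransferase Gpam by -0.38 ± 0.11 (edgeR adjusted p = 5.43e-05 and 0.00601), the last 2 not by library size only. Dgat2 (0.09 ± 0.10) and Lpin1 (-0.99 ± 0.68) did not pass, and Pnpla3 and Pnpla5 had too few reads to test. By library size only Dgat2 passed, at 0.55 (edgeR adjusted p = 5.9e-05), and Lpin1 did not.

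Sterol synthesis, the other branch under SREBP control, was lower under both scalings. Of 22 targets of SREBP-2, 0 were higher and 19 lower, with a median of -1.31 (1 and 17 by library size only). Sqle, squalene epoxidase, went from 10.6 ± 3.11 to 0.778 ± 0.555 CPM (SD, n = 5 each), -3.76 ± 0.49 on the log2 scale (edgeR adjusted p = 6.78e-06). Tm7sf2 was lower by -2.36 ± 0.12 (edgeR adjusted p = 4.03e-11) and Hsd17b7 by -2.31 ± 0.17 (edgeR adjusted p = 3.53e-09). Of 9 targets of liver X receptors, 5 were higher and 0 lower (7 and 0 by library size only), among them the sterol exporters Abcg1 (2.79 ± 0.17, edgeR adjusted p = 2.97e-10) and Abcg5 (1.39 ± 0.22, edgeR adjusted p = 3.96e-05). Abcg1 is also a macrophage gene, and the macrophage marker sums above rose in the same libraries. Its part in this value was not tested.

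Genes of fasting and of the daily clock track when and how recently animals ate. Of 14 fasting genes 0 were higher and 12 lower in WSD, with a median of -1.34 (1 and 10 by library size only). Pck1 was lower by -2.29 ± 0.26 (edgeR adjusted p = 8.79e-07) and G6pc by -1.88 ± 0.20 (edgeR adjusted p = 3.4e-07), both enzymes of glucose output. Of 16 clock genes 2 were higher and 5 lower (6 and 3 by library size only), a smaller share called than the 53% of all genes, with a median of -0.09. Those named were Dbp at 2.76 ± 0.52 (edgeR adjusted p = 0.000334), Bhlhe41 at 1.51 ± 0.41 (edgeR adjusted p = 0.00438), Nfil3 at -1.44 ± 0.18 (edgeR adjusted p = 2.01e-06) and Cry1 at -1.11 ± 0.14 (edgeR adjusted p = 2.86e-06). The part of feeding state or hour in the values of the 10 genes was not tested.

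With beta-glucan added to WSD, 7 of these 9 lists had no gene past the threshold in edgeR. Of the others, Tm7sf2 was higher among the sterol genes (0.63 ± 0.12, edgeR adjusted p = 0.0276) and Abcg1 lower among the liver X receptor targets (-0.91 ± 0.16, edgeR adjusted p = 0.0261). The NADPH enzymes G6pdx and Pgd were at -0.51 ± 0.16 and -0.48 ± 0.11 and did not pass (edgeR adjusted p = 0.138 and 0.0679). Pgd did pass by library size only, at -0.64 (edgeR adjusted p = 0.016).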

How the data were processed

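Poly(A) RNA libraries were made from liver RNA with a stranded kit, per the labels. Per the submitters' processing notes, Salmon 1.10.1 and DESeq2 1.38.3 were used with GRCm39, and roles or options are not given in the sources used here. The authors deposited estimated counts (expected counts), TPM and effective lengths (other) per transcript. Of 116546 transcripts, 115977 matched GENCODE M21 (GRCm38), and the 569 others, with 0.0623% to 0.1095% of reads, were left out. Estimated counts were summed per gene and rounded, and deposited TPM were summed.

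Tests used edgeR 4.0.16 (R 4.3.3) over all 19 libraries, with filterByExpr, TMM, robust quasi-likelihood fits with a mean per group and Benjamini-Hochberg adjustment over 13594 genes in each of 5 contrasts (threshold 0.05). The fit was tested on simulated data. Log2 CPM used a prior count of 2. Shares and ratios were compared by exact permutation tests. DESeq2 1.42.0 was an alternative, as were other scalings, filters and left-out libraries.

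The genes named are the 10 members, a fixed selection of pathway genes, the 2 genes called with the smallest p in each direction per list, and the 5 genes most like the members. Values of some genes under this rule are not reported here. Members, lists and tests were chosen with earlier results of these data known. Replicate numbers follow deposition order and pair no libraries. Reads carried no molecular identifiers, so they may include copies of one molecule.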

Additional observations from a re-analysis of the deposited data

Results flagged for a closer look

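Each member was checked in each group for 1 library far from the others, 40 combinations in all, by the gap to its nearest neighbour relative to the range. The check picked out 2, and chance alone picks about 1 in 20. Scd1 was at 4318.5 CPM in CTRL+beta-Glucan replicate 4, while the next library of that group was at 3186.1 CPM. Thrsp was at 11.6 CPM in CTRL replicate 2, where the next library was at 8.4 CPM.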

How the results depend on the processing

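Each fold change of a member was recomputed in up to 28 settings, 1390 values in all. Of these, 1331 kept their direction and their side of the threshold, 6 lost a call, 15 gained one and 38 changed sign, 25 of them in CTRL+beta-Glucan against CTRL. No paired analysis was possible because the labels give no replicate numbers shared between groups.

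Genes called in WSD+beta-Glucan against WSD were 53, with 436 by DESeq2, 34 with an effective-length offset, 258 with a term for the 3 low-numbered libraries, 457 in a fit of only the groups compared and 294 by library size only. Members called there were 0, with 2 by DESeq2, 1 with that term and 1 in the fit of those groups. For CTRL+beta-Glucan against CTRL the genes called were 1, with 6 by DESeq2, 2 with the term, 5 without the 3 libraries, 0 in the fit of those groups and 0 by library size only. For the difference between the effects they were 1, with 139 by DESeq2 (2 members), 2 with the term, 2 without the 3 libraries and 3 by library size only.

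Leaving out each library in turn gave 6448 to 7401 genes and 9 to 9 members in WSD against CTRL, 2 to 184 and 0 to 0 in WSD+beta-Glucan against WSD, 0 to 2 and 0 to 0 in CTRL+beta-Glucan against CTRL, 3681 to 4720 and 5 to 7 between the groups with beta-glucan, and 0 to 81 and 0 to 0 for the difference. The 53 genes became 2 without replicate 1, 2 or 4 of WSD+beta-Glucan or replicate 5 of WSD, 3 without WSD replicate 1 or 2 and 33 without WSD replicate 3. They became 85 and 184 without CTRL+beta-Glucan replicates 1 and 5 and 97 without CTRL replicate 1. The 81 genes of the difference came without CTRL+beta-Glucan replicate 5.

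Signs that changed were all of log2 fold changes that were not called, except Me1 in WSD against CTRL by library size only (0.02). In CTRL+beta-Glucan against CTRL, with the term, without the 3 libraries and by library size only, Acaca was 0.07, 0.09 and 0.01 and Elovl6 0.16, 0.29 and 0.02, while without the 3 libraries Fasn was -0.08 and Scd1 0.05. Elovl6 in WSD+beta-Glucan against WSD was 0.1 with the term. By library size only, Acly was -0.09 in WSD+beta-Glucan against WSD and -0.01 for the difference, and Me1 was 0.22 between the groups with beta-glucan. With single libraries left out, the ranges in CTRL+beta-Glucan against CTRL were -0.08 to 0.04 (Acaca), -0.13 to 0.0 (Acly), -0.22 to 0.12 (Elovl6), -0.15 to 0.11 (Scd1) and -0.34 to 0.25 (Scd2). In WSD+beta-Glucan against WSD they were 0.0 to 0.14 (Acly) and -0.11 to 0.01 (Elovl6), between the groups with beta-glucan -0.15 to 0.03 (Me1) and -0.09 to 0.21 (Mlxipl), and for the difference -0.18 to 0.16 (Elovl6). The cause of these changes was not tested.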
